A study of Mus musculus with 12 samples.

Results

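Erythropoietin (Epo) and the genes of oxygen sensing were examined in whole kidney tissue of mice with and without chronic kidney disease (CKD). The 9 genes were Epo, Hif1a, Epas1, Egln1, Egln2, Egln3, Vhl, Vegfa and Ankrd37, and they were taken by name from the 22053 rows of the expression table. Of these, 8 had at least 1 FPKM (fragments per kilobase of transcript and per unit of mapped reads in that library) in at least 4 mice and entered the fit over 13148 genes. Epo did not reach this level in any mouse.

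The 12 C57BL/6 mice gave 1 RNA library each, 4 in each of 3 groups. CKD was induced by a diet with 0.2% adenine for 8 weeks, from 8 to 16 weeks of age. Control mice received the same diet without adenine, and both control and untreated CKD mice were injected intraperitoneally with PBS every week. The CKD+Fe mice ate the adenine diet and were injected weekly with iron dextran, an iron-carbohydrate complex, at 0.5 g/kg. All mice were wild-type. Each mouse is named by its number. The labels do not say whether mice of a group shared a cage or litter, so P values measure the spread between these mice.

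Cells sense oxygen through hypoxia-inducible factors (HIF). When oxygen and iron are available, prolyl hydroxylases encoded by the Egln genes modify the HIF-alpha subunits, and the product of Vhl then directs these subunits to degradation. When hydroxylation fails, HIF-alpha pairs with its beta partner and switches on genes such as Epo, which in the adult kidney is made by interstitial fibroblast-like cells and drives red cell production. HIF-alpha is controlled mainly as a protein, so the transcript levels given here are not levels of active factor.

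By level, Vegfa was the highest of the 9 genes and Epo the lowest in every group. In control mice the order of mean FPKM was Vegfa, Egln1, Egln2, Epas1, Hif1a, Vhl, Egln3, Ankrd37 and Epo, and among neighbours in this order the ranges over mice overlapped only for Egln1 and Egln2. In CKD mice Hif1a came next after Vegfa, followed by Egln2 and Epas1, and the ranges of each of these neighbours overlapped. Egln1 stood below Epas1 in CKD mice and overlapped in range with Vhl. In CKD+Fe mice the order was that of CKD mice, and the neighbours from Hif1a through Egln2 and Epas1 to Egln1 overlapped. These orders compare FPKM, which are per length of transcript.

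**Figure D1:**
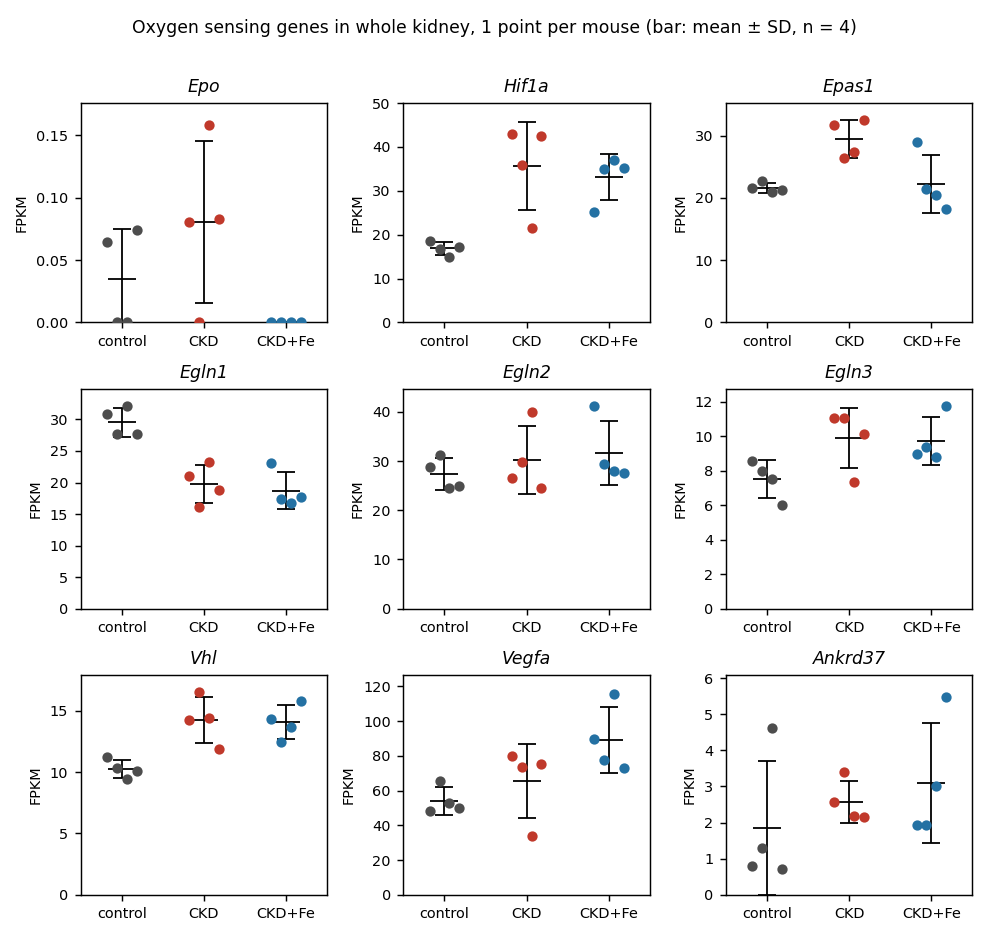
FPKM of the 9 genes (vertical axis, from 0, with its own scale in each panel) in control, CKD and CKD+Fe mice, with 1 point per mouse and a bar for the mean ± SD. Egln1 lay at 27.6 to 32.1 FPKM in control mice and at 16.1 to 23.2 FPKM in CKD mice, while Hif1a lay at 14.9 to 18.6 and at 21.5 to 43.0 FPKM. All 4 CKD+Fe mice were at 0 for Epo.

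Transcripts of Epo, the hormone of the axis, were at the edge of detection in all 3 groups. Epo (ENSMUSG00000029711, GRCm38 chromosome 5, 137483020 to 137533242) was listed at 0.0644, 0, 0 and 0.0741 FPKM in control mice. It was listed at 0.0808, 0, 0.158 and 0.0832 FPKM in CKD mice and at 0 in all 4 CKD+Fe mice. In all, 7 of 12 mice were at 0, and the control and CKD mice overlapped. The low FPKM of a library fall on whole multiples of what 1 read is worth, which gave an estimated depth of 20400000 to 31000000 mapped reads per mouse. On that scale, the 5 values above 0 came to 1.01 and 0.97 reads in the control mice and to 1.04, 1.99 and 1.03 reads in the CKD mice, with the length of the shortest Epo transcript. A level of 3 reads, the limit that a count of 0 allows for counting error, was 0.191 to 0.29 FPKM. No mouse exceeded its limit. A difference in Epo was therefore not detectable at this depth (exact two-sided permutation test, P = 0.2 for CKD against control, 0.143 for CKD+Fe against CKD and 0.429 for CKD+Fe against control). The interval given for Epo by the annotation also holds 7 other genes, among them Gnb2 and Pop7 on the same strand, and the source of the single reads was not tested.

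Both HIF-alpha subunits had higher FPKM in CKD than in control kidneys as deposited. Hif1a (ENSMUSG00000021109, chromosome 12, 73901375 to 73947530) encodes the subunit found in most cells. Its level was 18.6, 16.7, 14.9 and 17.2 FPKM in control mice and 43.0, 35.9, 21.5 and 42.4 FPKM in CKD mice. It was 25.3, 34.9, 37.1 and 35.1 FPKM in CKD+Fe mice. Every CKD and CKD+Fe mouse lay above every control mouse, with CKD mouse 110310 and CKD+Fe mouse 042702 the lowest of their groups. The log2 fold change in CKD was 0.995 ± 0.20 (SE, adjusted P = 0.000627), from 16.9 ± 1.51 to 35.7 ± 10.002 FPKM (SD, n = 4).

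Epas1 (ENSMUSG00000024140, chromosome 17, 86753907 to 86833410) encodes HIF-2-alpha, the subunit that drives Epo in renal interstitial cells and is also abundant in endothelium. Its level was 21.6, 22.7, 20.98 and 21.3 FPKM in control mice and 31.7, 26.4, 27.4 and 32.6 FPKM in CKD mice. The groups did not overlap, and the log2 fold change was 0.43 ± 0.14 (SE, adjusted P = 0.0155). In CKD+Fe mice Epas1 was at 29.0, 21.4, 20.5 and 18.2 FPKM, so that 3 of 4 lay below all CKD mice and mouse 042702 did not.

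These differences were read against the whole table, in which the median log2 fold change of all 13148 genes tested was 0.50 in CKD against control. The control mice had larger sums of FPKM (607951 to 707843, against 503438 to 603556 in CKD mice) and fewer genes at or above 1 FPKM (11470 to 11800, against 12750 to 13061). When the FPKM were rescaled between mice by the median of ratios, which centres all genes near 0, the log2 fold change of Hif1a was 0.44 (adjusted P = 0.0715) and that of Epas1 was -0.13 (adjusted P = 0.43). With quantile normalization they were 0.69 (adjusted P = 0.0237) and 0.13 (adjusted P = 0.485). The higher FPKM of Epas1 thus did not hold relative to the rest of the transcriptome, and its direction turned under rescaling.

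Among the prolyl hydroxylases, Egln1 fell in CKD under each of these 3 scalings, while Egln2 and Egln3 did not pass the test as deposited. Egln1 (ENSMUSG00000031987, chromosome 8, 124908587 to 124949324) encodes PHD2, the main oxygen sensor for HIF-1-alpha. It was at 30.8, 27.7, 32.1 and 27.6 FPKM in control mice, at 21.02, 16.1, 23.2 and 18.9 FPKM in CKD mice and at 23.0, 17.3, 16.8 and 17.8 FPKM in CKD+Fe mice. Every mouse on adenine lay below every control mouse. The level fell from 29.6 ± 2.26 to 19.8 ± 3.03 FPKM (SD, n = 4), a log2 fold change of -0.56 ± 0.14 (SE, adjusted P = 0.00288). After rescaling the log2 fold change was -1.12 (adjusted P = 2.02e-05) and after quantile normalization -0.87 (adjusted P = 0.000213). With any 1 of the 12 mice left out it stayed between -0.64 and -0.47, called each time.

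Egln2 (ENSMUSG00000058709, chromosome 7, 27158658 to 27166802), which encodes PHD1, ranged from 24.4 to 31.2 FPKM in control mice and from 24.6 to 39.9 FPKM in CKD mice. The groups overlapped, and the log2 fold change was 0.12 ± 0.17 (SE, adjusted P = 0.531). After rescaling it was -0.43 (adjusted P = 0.0457), past the threshold in the opposite direction. Egln3 (ENSMUSG00000035105, chromosome 12, 54178981 to 54203860) encodes PHD3, whose own gene is a HIF target. Its level was 5.995 to 8.53 FPKM in control mice and 11.1, 11.03, 7.34 and 10.1 FPKM in CKD mice. All CKD mice but 110310 lay above the control mice. The log2 fold change was 0.35 ± 0.16 (SE, adjusted P = 0.061). It was 0.48 (adjusted P = 0.00889) without mouse 110310, the only call with each of the 12 mice left out in turn (lowest value 0.26). After rescaling it was -0.17 (adjusted P = 0.36).

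Vhl (ENSMUSG00000033933, chromosome 6, 113623959 to 113631633), the substrate receptor of the ubiquitin ligase for hydroxylated HIF-alpha, was at 11.2, 10.4, 9.44 and 10.1 FPKM in control mice. It was at 14.2, 16.6, 14.4 and 11.9 FPKM in CKD mice, all above the control mice. The log2 fold change was 0.43 ± 0.13 (SE, adjusted P = 0.00848), but -0.10 after rescaling (adjusted P = 0.485) and -0.10 after quantile normalization (adjusted P = 0.529). The direction of Vhl thus turned once the values were centred on all genes.

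The HIF targets Vegfa and Ankrd37 did not pass the test in CKD. Vegfa (ENSMUSG00000023951, chromosome 17, 46016993 to 46032377), the main angiogenic ligand and made in the kidney chiefly by podocytes and tubules, was at 48.1, 65.8, 52.6 and 50.2 FPKM in control mice. It was at 79.8, 73.8, 33.6 and 75.2 FPKM in CKD mice, of which 3 lay above all control mice and mouse 110310 below all of them. The log2 fold change was 0.21 ± 0.24 (SE, adjusted P = 0.464), and 0.50 (adjusted P = 0.0155) without mouse 110310. In that fit the median of all genes was 0.53, and 55.9% of them were called higher. With all mice, Vegfa was at -0.36 after rescaling (adjusted P = 0.192) and at 0.21 after quantile normalization (adjusted P = 0.55).

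Ankrd37 (ENSMUSG00000050914, chromosome 8, 45996902 to 46005707) encodes an ankyrin repeat protein and is a direct HIF-1 target in many cell types. It was at 0.798, 1.30, 4.61 and 0.713 FPKM in control mice and at 2.58, 3.39, 2.17 and 2.14 FPKM in CKD mice. Control mouse 042301 exceeded all CKD mice and the other 3 control mice were below all of them. The log2 fold change was 0.49 ± 0.34 (SE, adjusted P = 0.216), and 0.88 (adjusted P = 0.00884) without mouse 042301, where 54.4% of all genes were called higher. With all mice, Ankrd37 was at 0.13 after rescaling (adjusted P = 0.762) and at -0.32 after quantile normalization (adjusted P = 0.432). Mouse 042301 had a summed 1740 FPKM over 8 markers listed for papilla and urothelium, where the other control mice had 310 to 512 FPKM. That sum was mostly Aqp2 (964 FPKM) and Fxyd4 (622 FPKM), genes of the collecting duct. No urothelial Upk gene exceeded 7.88 FPKM in any control mouse. Whether the sample of mouse 042301 held more papilla, medulla or urothelium was not tested. Over 7 endothelial markers mouse 042301 had 475 FPKM, where the others had 198.7 to 225 FPKM. The part of collecting duct and endothelial cells in the Ankrd37 value was not tested. Annotated genes on the opposite strand overlap Hif1a (Gm15283), Ankrd37 and Egln2, and on the same strand Hif1a overlaps the protein-coding Gm49321 and Epas1 an unconfirmed transcript. The libraries were stranded, but whether the estimates used strand is not given in the sources used here.

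In total, 3 of the 8 tested genes were called higher in CKD than in control (Hif1a, Epas1 and Vhl), against 54.6% of all genes tested, and 1 was called lower (Egln1), against 13.3%. The same 4 genes had groups that did not overlap, as did 44.6% of all genes in the higher and 10.5% in the lower direction. The median log2 fold change of the 8 genes was 0.39, beside 0.50 over all genes. After rescaling, 0 were called higher and 2 lower (Egln1 and Egln2), against 28.8% and 29.3% of all genes. After quantile normalization, 1 was called higher (Hif1a) and 1 lower (Egln1), against 23.3% and 25.6%. The calls as deposited were thus no more frequent among these genes than in the whole table.

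**Figure D2:**
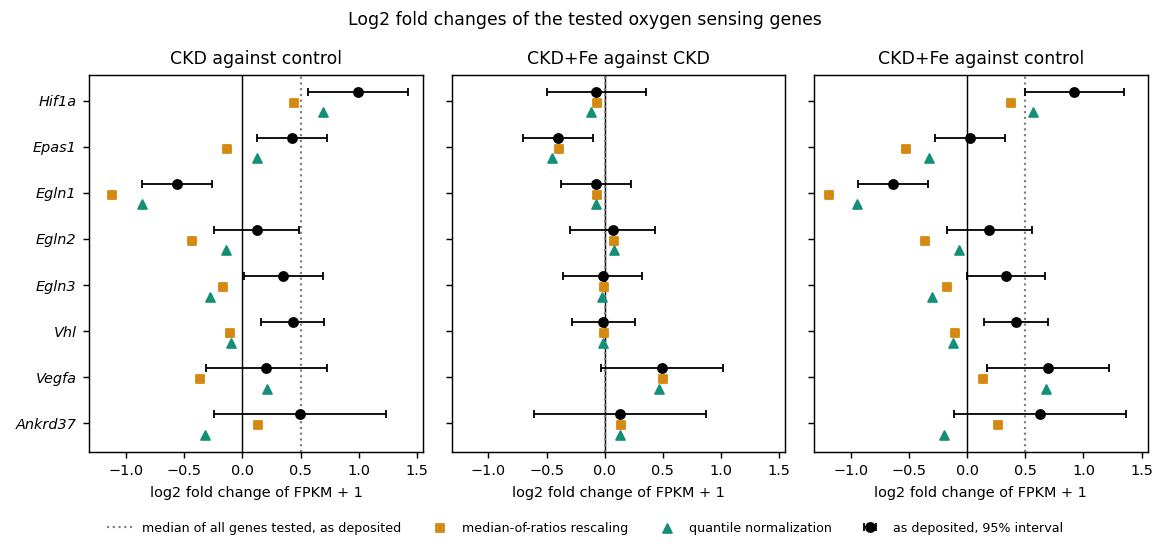
Log2 fold change of FPKM + 1 (horizontal axis) for the 8 tested genes in the 3 comparisons, as deposited with the 95% interval (black circles), after median-of-ratios rescaling (orange squares) and after quantile normalization (green triangles), with a dotted line at the median of all genes tested. Egln1 lay below 0 on all 3 scales against control, at -0.56, -1.12 and -0.87 in CKD, whereas Vhl lay at 0.43, -0.10 and -0.10.

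Since a common factor per mouse cancels in a ratio of genes, the subunits and hydroxylases were also set against each other within each mouse. These ratios were chosen after the values were seen and are given as a description. Hif1a to Epas1 was 0.712 to 0.862 in control mice, 0.786 to 1.36 in CKD mice and 0.871 to 1.93 in CKD+Fe mice. CKD mouse 110310 was the only CKD mouse within the control range, and all CKD+Fe mice were above it. Hif1a to Egln1 was 0.465 to 0.624 in control mice, 0.926 to 2.25 in CKD mice and 1.10 to 2.21 in CKD+Fe mice. Control mice overlapped with neither group, which follows from the separate ranges of Hif1a and of Egln1 given above and adds nothing to them. The hydroxylases were set against each other in the same way. Egln1 to Egln2 was 0.886 to 1.31 in control mice, 0.540 to 0.792 in CKD mice and 0.558 to 0.645 in CKD+Fe mice. Egln1 to Egln3 was 3.47 to 4.61 in control mice, 1.46 to 3.16 in CKD mice and 1.51 to 2.58 in CKD+Fe mice.

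**Figure D3:**
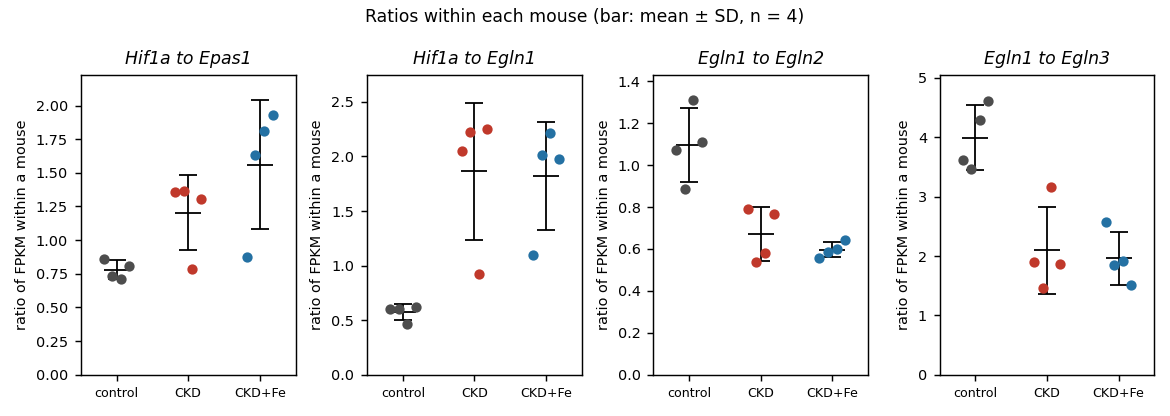
Ratio of FPKM of 2 genes within a mouse (vertical axis, from 0) in control, CKD and CKD+Fe mice, with 1 point per mouse and a bar for the mean ± SD. Hif1a to Egln1 had a mean of 0.574 for control, 1.86 for CKD and 1.82 for CKD+Fe mice. The lowest adenine-fed mouse, CKD mouse 110310 at 0.926, lay above the highest control mouse at 0.624, as the ranges of the single genes require.

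Iron dextran was compared with no treatment within CKD, the comparison that asks whether iron moved these genes. None of the 8 genes was called in either direction by limma, nor after rescaling or quantile normalization. Over all genes 0.00761% were called higher and 0% lower. The 2 groups overlapped for each of the 8 genes, and 1.35% of all genes were separate in the higher and 1.09% in the lower direction. Epas1 alone passed an unadjusted P of 0.05, with 3.28% of all genes passing in the higher and 2.73% in the lower direction. The log2 fold change of Epas1 was -0.41 (95% interval -0.71 to -0.10, adjusted P = 0.641), from 29.5 ± 3.08 to 22.3 ± 4.69 FPKM (SD, n = 4). The groups overlapped through mouse 042702 (exact permutation test, P = 0.0857). With limma's array quality weights, which give less weight to mice far from their group, Epas1 was -0.56 (adjusted P = 0.0382), a setting that called 0.426% of all genes lower, and it was -0.57 (adjusted P = 0.0522) without the 3 mice that stood apart in an earlier analysis (control 042301, CKD 110310 and CKD+Fe 042702).

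For the other genes the interval of the iron difference was as follows. For Hif1a the log2 fold change was -0.07 (95% interval -0.50 to 0.35), and for Egln1 it was -0.08 (-0.38 to 0.22). For Egln2 it was 0.07 (-0.30 to 0.43), for Egln3 -0.02 (-0.36 to 0.32) and for Vhl -0.01 (-0.29 to 0.26). The intervals are not adjusted over genes, and differences inside them remain compatible with the values of these 4 mice per group. Vegfa was at 90.0, 77.9, 115 and 73.2 FPKM in CKD+Fe mice, with 2 of 4 above all CKD mice, and its log2 fold change was 0.49 (-0.03 to 1.01, adjusted P = 0.85). Without the 3 mice that stood apart it was 0.19. Ankrd37 was at 1.94, 1.93, 3.03 and 5.47 FPKM in CKD+Fe mice, a log2 fold change of 0.13 (-0.61 to 0.87).

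The CKD+Fe kidneys were next compared with control kidneys, which the previous comparisons share. Hif1a was higher by 0.92 ± 0.20 on the log2 scale (SE, adjusted P = 0.00122), Vhl by 0.42 ± 0.13 (adjusted P = 0.0106) and Vegfa by 0.70 ± 0.24 (adjusted P = 0.0219). Egln1 was lower, with a log2 fold change of -0.64 ± 0.14 (SE, adjusted P = 0.00134). These were 3 higher calls and 1 lower call among 8 genes, against 54.4% and 11% of all genes. The groups did not overlap for these 4 genes and for Egln3, which was at 8.93, 9.36, 8.77 and 11.7 FPKM in CKD+Fe mice (log2 fold change 0.33, adjusted P = 0.0767), where 50.4% of all genes did not overlap in the higher and 9.85% in the lower direction. The median of all genes was again 0.50. Egln2 was 0.19 (adjusted P = 0.337) and Ankrd37 0.62 ± 0.34 (SE, adjusted P = 0.125). Ankrd37 was 1.01 (adjusted P = 0.00421) without control mouse 042301, its only call with each of the 12 mice left out in turn. After rescaling Ankrd37 was 0.27 (adjusted P = 0.537). The Egln3 difference reached an adjusted P of 0.0361 without CKD mouse 110310, which is in neither group but shares the estimate of spread. The call of Vegfa was lost without control mouse 012811 (0.64, adjusted P = 0.0565) and without CKD+Fe mouse 111710 (0.57, adjusted P = 0.0715), and after rescaling Vegfa was at 0.14 (adjusted P = 0.639).

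Epas1 was 22.3 ± 4.69 FPKM in CKD+Fe and 21.6 ± 0.738 FPKM in control mice (SD, n = 4), a log2 fold change of 0.02 ± 0.14 (SE, adjusted P = 0.906). After rescaling, Epas1 was 15.9 to 24.2 in CKD+Fe mice and 26.6 to 29.7 in control mice, and the log2 fold change was -0.52 (adjusted P = 0.00528). Hif1a on that scale was 0.38 (adjusted P = 0.122), and Egln1 was -1.19 (adjusted P = 1.96e-05). After rescaling, 0 of the 8 genes were thus called higher and 2 lower (Egln1 and Epas1), against 27.7% and 27.5% of all genes, and after quantile normalization 0 and 1 (Egln1), against 19.8% and 22.6%.

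The promoters of the 9 genes were searched for ACGTG and GCGTG, the letters that HIF binds. RefSeq promoters (GRCm38.p6, the 250 bases before the annotated start) were matched for 8 of the 9 genes. The letters ACGTG or GCGTG, searched on both strands so that CACGT and CACGC also count, were in 6 of these 8 promoters and in 38.6% of all 32851 promoters of the same length. ACGTG alone was in 5 of 8 and in 16.6% of all. Shown are the promoters of Egln1, lower in CKD on each scale, of Hif1a, and of the targets Ankrd37 and Vegfa, 5′ to 3′ on the strand of the gene with the matches in capitals.
Egln1, chr8:124949255-124949504, minus strand: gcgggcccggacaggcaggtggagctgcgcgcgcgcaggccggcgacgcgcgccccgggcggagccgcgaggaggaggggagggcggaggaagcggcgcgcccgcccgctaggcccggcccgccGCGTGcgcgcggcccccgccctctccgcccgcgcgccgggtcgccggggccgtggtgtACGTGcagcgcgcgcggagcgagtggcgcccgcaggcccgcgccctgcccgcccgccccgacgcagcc
Hif1a, chr12:73907617-73907866, plus strand: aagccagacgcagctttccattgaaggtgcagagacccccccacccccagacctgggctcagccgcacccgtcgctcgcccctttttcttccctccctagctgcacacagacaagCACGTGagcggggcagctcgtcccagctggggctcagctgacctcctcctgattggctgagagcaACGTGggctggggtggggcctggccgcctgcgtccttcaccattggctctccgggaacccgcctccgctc
Ankrd37, chr8:45999851-46000100, minus strand: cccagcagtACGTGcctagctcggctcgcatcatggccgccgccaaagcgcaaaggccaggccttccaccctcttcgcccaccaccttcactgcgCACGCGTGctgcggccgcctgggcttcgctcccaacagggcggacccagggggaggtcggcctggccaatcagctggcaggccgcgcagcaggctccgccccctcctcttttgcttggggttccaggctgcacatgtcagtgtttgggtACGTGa
Vegfa, chr17:46032378-46032627, minus strand: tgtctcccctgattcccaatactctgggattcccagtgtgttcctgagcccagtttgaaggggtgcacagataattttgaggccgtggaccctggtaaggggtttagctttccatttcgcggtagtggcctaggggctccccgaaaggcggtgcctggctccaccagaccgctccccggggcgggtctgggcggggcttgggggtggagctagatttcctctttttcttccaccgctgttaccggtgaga
The Ankrd37 window held 4 matches, some of them overlapping on the 2 strands, the Hif1a window 3 and the Egln1 window 2. The windows of Vegfa and Vhl held none, which says only that these letters were not in these 250 bases. Vegfa and Egln2 each had 2 promoters listed, and the counts given here cover 1 window per gene. A match of letters is a description and not a binding site.

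The other parts of the HIF machinery were taken from a list of 12 genes, of which 11 were tested and 6 were called higher and 0 lower in CKD, against 54.6% and 13.3% of all genes. Arnt2 and Arnt, which encode beta partners of HIF-alpha, had log2 fold changes of 1.17 ± 0.21 and 1.14 ± 0.18 (SE, adjusted P = 0.00025 and 0.000121). Arnt was at 7.04 ± 1.32 FPKM in control and 17.0 ± 4.25 FPKM in CKD mice (SD, n = 4). Ep300, a histone acetyltransferase recruited by HIF, rose by 1.03 ± 0.22 (SE, adjusted P = 0.000976). The median of the list was 0.65, beside 0.50 over all genes. After rescaling, 4 were called higher and 4 lower, against 28.8% and 29.3% of all genes. After quantile normalization the counts were 2 and 1, against 23.3% and 25.6%. Arnt2 and Arnt were past the threshold after quantile normalization and Ep300 was not (0.37, adjusted P = 0.15). The CKD and control mice overlapped for Ep300 as deposited. After rescaling Arnt2, Arnt and Ep300 were at 0.65, 0.62 and 0.53, each still past the threshold. The 4 genes called lower on that scale, named after their values were seen, were Elob, Eloc, Cul2 and Rbx1. None of these 4 passed as deposited, and only Cul2 did after quantile normalization (-0.56, adjusted P = 0.0044), where Elob was at 0.17.

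Of 25 genes listed as HIF targets, 12 were called higher and 4 lower in CKD, against 54.6% and 13.3% of all genes, and the median log2 fold change was 0.41, beside 0.50 over all genes. Among those that rose were Edn1, the precursor of the vasoconstrictor endothelin-1 (3.59 ± 0.27, adjusted P = 2.96e-07), and Lox, the collagen cross-linking enzyme (3.25 ± 0.18, adjusted P = 3.53e-08). Edn1 was at 1.02 ± 0.591 FPKM in control and 24.1 ± 8.89 FPKM in CKD mice (SD, n = 4). Both genes are also induced in scarring and inflammation by factors other than HIF. The 4 genes called lower, named after their values were seen, were Car9, a carbonic anhydrase (-0.84), the glycolytic enzyme Pgk1 (-0.52), the collagen prolyl hydroxylase P4ha1 (-0.51) and the vasodilator precursor Adm (-0.42). After rescaling, 10 were called higher and 11 lower, against 28.8% and 29.3% of all genes. The median was then -0.13, so the list did not move in 1 direction. Edn1 and Lox were at 3.21 and 2.86 on that scale. After quantile normalization, 8 of the 25 were called higher and 6 lower, against 23.3% and 25.6% of all genes. With iron, 0 of the 25 were called in either direction.

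**Figure D4:**
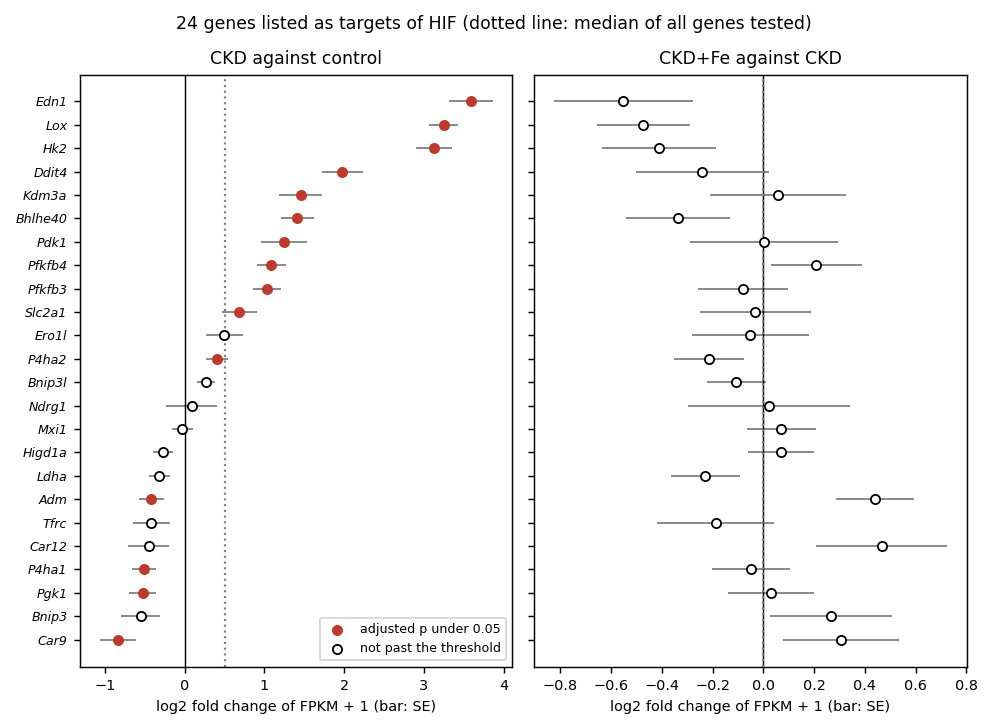
Log2 fold change of FPKM + 1 (horizontal axis, with the SE as bar and a different range in each panel) of the 24 listed HIF targets that are shown, in CKD against control and in CKD+Fe against CKD, with filled points where the adjusted P was under 0.05 and a dotted line at the median of all genes tested. In CKD the genes shown ran from -0.84 for Car9 to 3.59 for Edn1, and in CKD+Fe against CKD no point was filled.

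Of 9 other ligands and receptors of the VEGF family, 4 were called higher and 1 lower in CKD, against 54.6% and 13.3% of all genes. Their median was 0.45, beside 0.50 over all genes. Nrp2 and Nrp1, co-receptors for VEGF and semaphorins, rose by 1.46 ± 0.17 and 1.37 ± 0.19 (SE, adjusted P = 1.09e-05 and 4.12e-05), and Vegfd, a lymphangiogenic ligand, by 0.77 ± 0.16 (adjusted P = 0.000952). Kdr, the main endothelial receptor for the Vegfa product and named here after its value was seen, was lower at 6.22 ± 0.610 against 10.6 ± 1.77 FPKM (SD, n = 4), a log2 fold change of -0.67 (adjusted P = 0.00714). After rescaling, 2 were called higher, Nrp2 at 0.98 and Nrp1 at 0.82, and 3 lower, against 28.8% and 29.3% of all genes. After quantile normalization the counts were 2 and 4, against 23.3% and 25.6%. With iron, 0 of 9 were called.

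Of 7 genes for the Epo receptor, its signalling and regulators of Epo, 4 were called higher and 1 lower in CKD. Over all genes 54.6% and 13.3% were. After rescaling the counts were 1 and 1, against 28.8% and 29.3% of all genes. After quantile normalization they were 1 and 4, against 23.3% and 25.6%. Hnf4a, a hepatic and tubular transcription factor that acts at the Epo enhancer and is expressed in proximal tubule, fell by 1.52 ± 0.21 on the log2 scale (SE, adjusted P = 9.53e-05), from 197 ± 16.7 to 70.2 ± 20.5 FPKM (SD, n = 4). Jak2, the kinase bound to the Epo receptor, rose by 0.97 ± 0.13 (adjusted P = 2.74e-05), and Stat5a, a transcription factor downstream of it, by 0.67 ± 0.15 (adjusted P = 0.00146). After rescaling Jak2 was at 0.45 (adjusted P = 0.0054) and Stat5a at 0.17 (adjusted P = 0.325). The receptor gene Epor had a log2 fold change of -0.17 ± 0.40 (SE, adjusted P = 0.721), and its value turned with the setting. Control mice ranged from 1.42 to 12.3 FPKM, and Epor was at 0.42 (adjusted P = 0.0393) without the 3 mice that stood apart and at -0.94 (adjusted P = 0.0412) after quantile normalization. With iron, 0 of 7 were called.

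Markers of several cell types moved with CKD beside these genes. In bulk tissue, fewer cells of a type and less RNA per cell cannot be told apart. Beside the counts of markers called in CKD, 54.6% of all genes were called higher and 13.3% lower as deposited. After rescaling these shares were 28.8% and 29.3%. Over 7 markers of fibroblasts and pericytes, a class that includes Epo producers, levels were summed. The sum was 85.3 to 96.7 FPKM in controls, 193 to 260 with CKD and 170 to 300.2 with CKD+Fe. Much of it was Dcn, with a mean of 27.1 FPKM in controls and 111 FPKM in CKD. In CKD 6 of the 7 were called higher (4 higher and 1 lower after rescaling). The other, Nt5e, named after its values were seen, was at -0.24 (adjusted P = 0.217), and at -0.80 after rescaling (adjusted P = 0.000771). In CKD+Fe against control Nt5e was called lower (-0.62, adjusted P = 0.00487). Summed over 6 macrophage markers the level was 51.0 to 127 FPKM in controls, 1125 to 2223 with CKD and 911 to 2344 with CKD+Fe. All 6 were called higher in CKD. Summed over 7 proximal tubule markers the level was 2087 to 3257 FPKM in controls, 502 to 891 with CKD and 561 to 1119 with CKD+Fe. All 7 were called lower in CKD. Of 7 endothelial markers, 0 were called by limma in either direction as deposited and 4 lower after rescaling, with sums of 198.7 to 475 FPKM in controls, 157 to 317 with CKD and 218 to 330 with CKD+Fe. Of 6 podocyte markers 3 were called higher (1 after rescaling), and of 4 thick ascending limb markers 1 higher (0 higher and 1 lower after rescaling). Of 8 papilla and urothelium markers 2 were called lower (3 after rescaling). These were Aqp2 and Aqp3, joined by Fxyd4 after rescaling, all genes of the collecting duct. Every list had its markers above 0 in each mouse, except the papilla and urothelium list, in which the urothelial Upk3a and Krt15 were at 0 in at least 1 control mouse and Upk2 in at least 1 CKD mouse. The part of these cell types in the values of the 9 genes was not tested. With iron, 0 markers were called in any of these lists. Without the 3 mice that stood apart, 1 proximal tubule marker, Slc22a8 (1.54, adjusted P = 0.0291), was called higher with iron. So was 1 marker of the papilla and urothelium list, the collecting duct gene Aqp3 (1.33, adjusted P = 0.0409). Both were named after their values were seen, and with array quality weights 1 marker of each of these lists was called higher. Over all genes, 0.388% were called higher with iron without the 3 mice and 0.601% with weights, beside 0.00761% as deposited.

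The genes whose pattern over the 12 mice was most like that of a member were found by Pearson's r of log2(FPKM + 1), over 13131 other genes (13132 for Epo). The r are descriptions, since the mice share groups and the genes were picked for the highest r of all those compared. With the group means taken off, r of the genes so picked ran from 0.643 for Ap3s2 with Epo to 0.925 for Mfap1b with Ankrd37. It comes from the same mice and is no independent check. For Epas1 they were Clic4 (0.90), Uvrag (0.89) and Etv6 (0.88). For Vegfa they were Mterf2 (0.92), Hps3 (0.91) and Micu3 (0.91), and for Egln3 Glmn (0.91), Zscan30 (0.90) and Zfp951 (0.90). For Ankrd37, in which 2 mice stood highest at 4.61 and 5.47 FPKM, they were Mfap1b (0.94) and Muc20 (0.91). For Epo, which rests on single reads, the highest r was 0.80 for Ap3s2, followed by Ola1 and Rad51d at 0.78.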

How the data were processed

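RNA of whole kidney was measured in 12 mice. The authors prepared mRNA libraries with a stranded kit, read them on a HiSeq instrument (single end, 50 cycles) and tested counts with DESeq2. They deposited FPKM values, 1 per gene and mouse, which are used here. The submitters' processing notes name bcl2fastq 2.19, STAR 2.5.2 and Cufflinks 2.1.1. The annotation is not given in the sources used here. Of the 21810 of 22053 rows whose identifier is in GENCODE M21 of GRCm38, 77.07% had the same ends. FPKM are relative to the total of each mouse, so a change in a few abundant genes shifts all others. Failed estimates (30 values, 0 in the 9 genes) were set to missing.

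Log2(FPKM + 1) was fitted with limma 3.58.1 in R 4.3.3 (eBayes with a variance trend, all 12 mice, no covariates) over 13148 genes, those that reached 1 FPKM in 4 or more mice. Tests were two-sided, with Benjamini-Hochberg adjustment over these genes and a threshold of 0.05. Fold changes are on the log2(FPKM + 1) scale, which understates low genes. Single genes were also tested by exact permutation of the 70 arrangements of 4 mice against 4, whose smallest P is 0.0286. Count tests were not used because FPKM are not counts. The estimated reads took off 199 bases from each transcript for the fragment length, an assumption. The fit was tested on simulated data. Alternatives were other pseudocounts, filters, scalings, weights, thresholds and sets of mice.

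The 9 genes and the lists were chosen with earlier results of these data known. Named are the 9 genes, the 3 genes with the largest called change in CKD in each of the 4 pathway lists, and the 3 genes most like a member. Of these, 2 genes are not reported here.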

Additional observations from a re-analysis of the deposited data

Results flagged for a closer look

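In 4 of 26 groups of 4 mice, a single mouse lay far from the other 3 by Dixon's ratio of the gap to the range. Chance flags about 1 in 20 such groups. Vegfa was at 33.6 FPKM in CKD mouse 110310, where the other CKD mice were at 73.8 to 79.8 FPKM. Ankrd37 was at 4.61 FPKM in control mouse 042301 and at 0.713 to 1.30 FPKM in the others. In CKD+Fe mouse 042702, Egln1 was at 23.0 FPKM (others 16.8 to 17.8) and Egln2 at 41.3 FPKM (others 27.5 to 29.5). The same mouse had the highest sum over 6 podocyte markers, 372 FPKM, where the other CKD+Fe mice had at most 232 FPKM. Its sums were the lowest of the group over proximal tubule (561 against 966 to 1119 FPKM), thick ascending limb (1874 against 2616 to 2715 FPKM) and papilla and urothelium markers (236 against 445 to 494 FPKM). The last of these sums was mostly the collecting duct genes Aqp2, Fxyd4 and Aqp3. The part of these cells in its Egln values was not tested.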

How the results depend on the processing

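No paired analysis was possible because the groups share no replicate numbers. The count of genes called higher in CKD against control, 3 as deposited, was 0 after median-of-ratios rescaling, 1 after quantile normalization, 5 with array quality weights, 6 without the 3 mice that stood apart and 6 at an adjusted P under 0.5, the cutoff stated in the study's methods. Under these last 3 settings 60.5%, 59.4% and 69.1% of all genes were called higher, beside 54.6% as deposited. The count was 3 to 5 with each mouse left out, 5 without mouse 110310 (55.9% of all genes). The count called lower, 1, was 2 after rescaling. For CKD+Fe against CKD, the count lower was 1 with weights. For CKD+Fe against control, the count higher, 3, was 0 after rescaling, 0 after quantile normalization, 5 with weights, 5 without the 3 mice and 6 at the looser cutoff (62.8%, 57.8% and 70.2% of all genes under the last 3), and the count lower was 2 after rescaling. The other pseudocount, both filters, the fit on only the 2 groups compared and the fit without a variance trend did not move these counts by over 1.5 times.

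The sign of these log2 fold changes turned. In CKD against control, rescaling gave Epas1 -0.13, Egln2 -0.43, Egln3 -0.17, Vhl -0.10 and Vegfa -0.36, and quantile normalization gave Egln2 -0.14, Egln3 -0.28, Vhl -0.10 and Ankrd37 -0.32. Egln2 was -0.084 with weights, -0.063 without the 3 mice and -0.014 to 0.21 with each mouse left out. In CKD+Fe against control, rescaling gave Epas1 -0.52, Egln2 -0.36, Egln3 -0.18 and Vhl -0.11, and quantile normalization gave Epas1 -0.33, Egln2 -0.069, Egln3 -0.30, Vhl -0.12 and Ankrd37 -0.20. Epas1 was -0.10 with weights, -0.12 without the 3 mice and -0.11 to 0.11 with each mouse left out. In CKD+Fe against CKD, Vhl was 0.043 with weights, and with each mouse left out Hif1a ran from -0.29 to 0.047, Egln1 from -0.17 to 0.0010, Egln2 from -0.064 to 0.21, Egln3 from -0.14 to 0.035, Vhl from -0.090 to 0.058 and Ankrd37 from -0.12 to 0.26. The cause was not tested, beyond that rescaling centres all genes. Without a spike-in, total RNA of the kidney is unknown, and Epo was limited by depth.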
